A study of Mus musculus with 8 samples.

Results

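The cytosolic ribosomal protein genes encode the protein parts of the ribosome that translates most of a cell's mRNA. They were taken here as the protein-coding mouse genes whose whole symbol is Rpl or Rps followed by 1 or 2 digits and optionally the letter a, l or x. This rule found 77 genes of 21887 protein-coding genes on the placed chromosomes, 47 of the large subunit (Rpl) and 30 of the small subunit (Rps). Each gene body was extended 1 kb to each side, and the peaks of open chromatin that overlapped this stretch were compared between populations. The assay was ATAC-seq, where a transposase cuts and tags accessible DNA, in 4 sorted subpopulations of common myeloid progenitors, with 2 libraries each. All cells were primary bone marrow cells of Wild type C57BL/6 mice, and no age is stated. C2 was KIT+ CD16/32- CD34bright CD41+ CD9+, C18 was KIT+ CD16/32- CD34dim CD41+ CD9+ CD48dim, C13 was KIT+ CD16/32- CD34dim CD41- CD9-, and C10 was KIT+ CD16/32- CD34dim CD41+ CD9+ CD48bright. These names are those of the sample titles, and the text given for the whole series lists partly other cluster names.

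A ribosome is built from a large subunit, which forms peptide bonds, and a small subunit, which decodes the mRNA. Each subunit joins ribosomal RNA to many proteins that are needed in equal amounts, and their genes are highly transcribed in nearly every cell from short promoters, many of them with a run of pyrimidines at the start site. This run also begins their mRNAs (the 5' TOP motif), through which their translation is tied to growth signals. Red cell formation is sensitive to ribosome number: loss of 1 copy of genes such as RPS19, RPL5 or RPL11 causes Diamond-Blackfan anaemia in humans.

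Promoter sequences were available for 58 of the 77 genes, from RefSeq on GRCm38.p6, the assembly of mm10. The windows below run from 100 bases before to 20 bases after the annotated start, 5' to 3' on the strand of the gene. Capitals mark the ETS core CCGGAAG, the SP motif CCGCCC, the E-box CACGTG and, within 10 bases of the start, the pyrimidine runs CCTTT and CTTTC, on either strand for the first 3 and on the gene's strand for the runs. Rpl37 (chr15:5116513-5116632, plus strand) and Rpl15 (chr14:18270967-18271086, minus strand) are shown because their peaks ranked best by median over the 8 libraries.
Rpl37: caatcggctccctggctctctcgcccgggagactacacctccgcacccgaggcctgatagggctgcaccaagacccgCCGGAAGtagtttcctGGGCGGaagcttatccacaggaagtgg
Rpl15: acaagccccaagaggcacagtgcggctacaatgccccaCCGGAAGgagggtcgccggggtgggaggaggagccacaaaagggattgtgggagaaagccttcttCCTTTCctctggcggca
Rps19 (chr7:24884492-24884611, plus strand) is shown because its peak had the largest difference between C10 and C18. Rpl23 (chr11:97782420-97782539, minus strand) and Rps10 (chr17:27635225-27635344, minus strand) had the weakest peaks by median rank over the 8 libraries among the genes with a peak.
Rps19: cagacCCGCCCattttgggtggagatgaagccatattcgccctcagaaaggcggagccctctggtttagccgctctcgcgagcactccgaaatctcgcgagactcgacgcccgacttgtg
Rpl23: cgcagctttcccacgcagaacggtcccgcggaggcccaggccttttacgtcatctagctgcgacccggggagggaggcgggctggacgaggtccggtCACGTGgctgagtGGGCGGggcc
Rps10: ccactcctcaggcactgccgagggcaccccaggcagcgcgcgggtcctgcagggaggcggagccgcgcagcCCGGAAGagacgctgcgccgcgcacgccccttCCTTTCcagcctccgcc
The last pair had no F-Seq peak in any library. Rpl10l (chr12:66284382-66284501, minus strand) and Rpl39l (chr16:10170128-10170247, plus strand) are copies of Rpl10 and Rpl39 that are known mainly from the testis.
Rpl10l: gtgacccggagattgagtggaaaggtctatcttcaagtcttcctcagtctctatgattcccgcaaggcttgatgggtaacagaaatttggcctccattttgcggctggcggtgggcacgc
Rpl39l: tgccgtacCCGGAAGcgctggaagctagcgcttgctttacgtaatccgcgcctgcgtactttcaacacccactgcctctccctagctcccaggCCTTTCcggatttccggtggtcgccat
Rpl39l held an ETS core and a pyrimidine run at its start, as Rpl15 and Rps10 did, while none of these motifs was found in the Rpl10l window.

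The data were 2 peak lists per library as deposited by the authors, 1 from F-Seq with the 100000 strongest peaks and 1 from HOMER with 150-base peaks before overlaps were merged. F-Seq peaks were ranked by their signal within a list, rank 1 being the strongest. Sequencing depth is unknown, because neither kind of list gives read numbers. The C18 libraries stood apart: HOMER listed 72379 and 83548 peaks in them against 171712 to 260118 in the others, and their median F-Seq peak width was 491 and 618 bases against 691 to 800. The contrasts of C2 and of C13 with the mean of C10 and C18 were therefore also run without C18. Comparisons with C18 alone, such as C10 against C18, cannot be run without it and have no such check. Whether libraries of 1 population are from different animals is not stated, and p-values here thus reflect just the spread of these libraries, possibly a technical one. In sorted bulk cells, a peak open in fewer cells and a peak less open in each cell cannot be told apart. Of the 7 genes of the sort, 6 had an F-Seq peak in all 8 lists, and of 4 macrophage markers 1 did.

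Nearly all of the ribosomal protein genes carried open chromatin in every library. An F-Seq peak was present in all 8 lists at 73 of the 77 genes (94.8%, against 68.2% of all protein-coding genes), and a HOMER peak at 74 (96.1%, against 61.2%). The exceptions were mostly copies of other members. Rpl10l and Rpl39l had no peak from either caller, and Rpl32l had no F-Seq peak and a single 150-base HOMER peak in C13 replicate 1 and C10 replicate 1. Rps10, a small subunit protein, lacked an F-Seq peak in C10 replicate 1 alone and had HOMER peaks in all 8 lists. Of the other symbols that end in l, Rps27l, a p53-responsive copy of Rps27, and Rpl3l, a copy of Rpl3 known from muscle, had peaks in all lists.

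The peaks sat at the promoters. Of 55 genes with a peak and an annotated start, 47 had their median summit within 250 bases of it, with a median of -47 bases, just upstream, and quartiles of -102 and 1.25 bases. At Rps9, Rpl18, Rpl4 and Rpl3l the summit was more than 500 bases from the start. The Rpl3l summit lay 3830 bases downstream of the annotated start, and the stretch also contains Msrb1, so that the peak may not be that of the Rpl3l promoter. In 68 of the 74 genes with a peak, the strongest peaks of all lists that had a peak shared bases. Their summits could still differ. At Rpl38 the summit lay at -72 to -51 bases from the start in C2 and C18, and at 530 to 552 in C13 and C10. At Rpl10 it lay at -102 to -77 in C2 and C18, and at -521 to -446 in C13 and C10. At the other 6, Rps9, Rpl41, Rpl23a, Rpl24, Rps18 and Rpl17, the lists took the strongest peak from separate positions, so that their differences compare different peaks. Another gene overlapped the stretch at 30 of the 77 loci, such as Nkiras1 at Rpl15 and Card6 at Rpl37. The annotation also lists 309 Rpl or Rps pseudogenes, and no source used here says how reads with several matches were treated.

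The strength of these peaks relative to the rest of a list differed between populations. Among the 74 genes with a peak, the median rank was 5518.5 and 5005.5 in the C2 libraries, 3771.5 and 3880.5 in C18, 10344 and 10429.5 in C10, and 14332 and 13649.5 in C13. The libraries of a population lay close together and no population overlapped another, with C18 strongest, then C2, C10 and C13. All protein-coding genes with a peak had medians of 9425 and 10098 in C18, 10705 and 10903 in C2, 13969.5 and 14220.5 in C10, and 14754 and 15068 in C13, the same order over a narrower range. In C13 the ribosomal protein genes thus ranked near the typical gene, and in C18 well ahead of it.

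**Figure D1:**
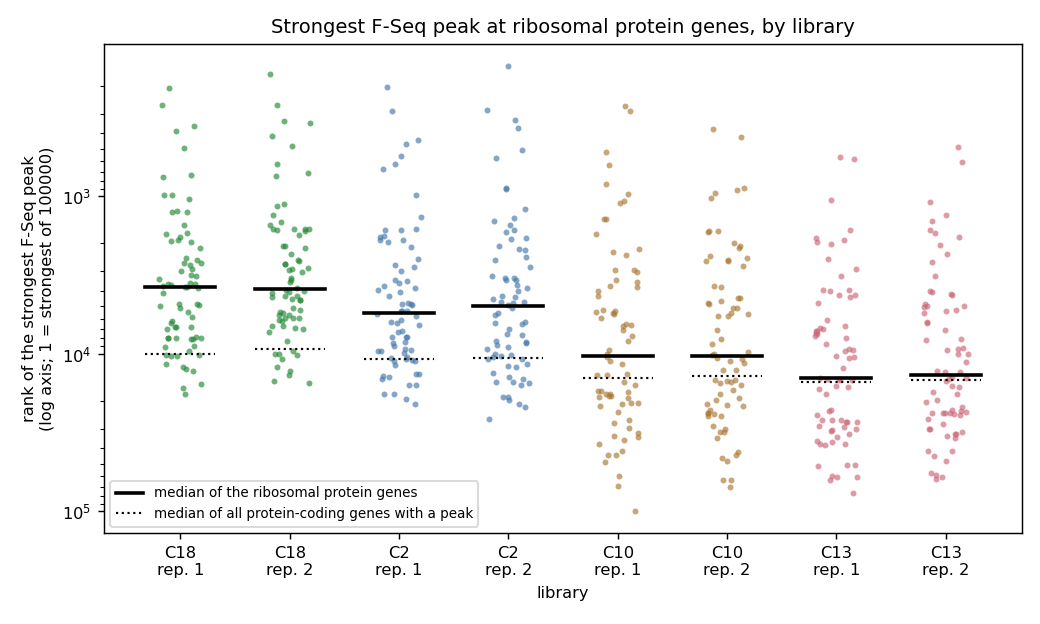
Rank of the strongest F-Seq peak (log axis, inverted, 1 = strongest) of each of the 74 ribosomal protein genes with a peak, as points, in the 8 libraries; solid bars are their median and dotted bars the median of all protein-coding genes with a peak. The gap between both medians was widest in C18 and smallest in C13; Rps10, without a peak in C10 replicate 1, is drawn at rank 100001 there.

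Counted by a fixed place in the list, 63 and 66 of the 74 genes were among the 10000 strongest peaks in C18, 56 and 52 in C2, 36 and 35 in C10, and 32 and 31 in C13. Of all genes tested, 47.3% and 49.0% reached that place in C18, 45.0% and 45.6% in C2, 38.3% and 38.9% in C10, and 36.5% and 36.7% in C13. At 51 of the 74 genes (68.9%) all 4 libraries of C2 and C18 ranked ahead of all 4 of C13 and C10, against 25.9% of all genes tested, and at 0 of them behind (5.71% of all genes). This grouping of populations was made after the medians were seen. The length of the HOMER lists moved the same way, from 72379 and 83548 peaks in C18 and 171712 and 196264 in C2 to 235812 to 260118 in C10 and C13, and its part in the rank differences was not tested. Marker lists of other cell types also differed in median rank. The 8 erythroid markers stood at 8808 and 14415 in C18, 16947 and 22715 in C2, 17523 and 20342 in C10, and 33160 and 37984 in C13. The 6 megakaryocyte markers stood at 12120 and 14101 in C18, 16618 and 17766 in C2, 14296.5 and 16978.5 in C10, and 37433 and 42658.5 in C13. The 6 granulocyte and monocyte markers stood at 15493 and 29070 in C18, 14928 and 17851 in C2, 38128.5 and 51171.5 in C10, and 50077.5 and 54868 in C13. C13 was weakest in the erythroid and megakaryocyte lists, while in the granulocyte and monocyte list its libraries overlapped those of C10. Lymphocyte markers had another order, strongest in C13 (8257 and 24364.5), then C2 (24699 and 24962.5), with C10 (43726.5 and 47989) and C18 (35688.5 and 54272) behind. Markers of stroma and endothelium ranged from 23832 in C2 to 42466 in C10, and those of macrophages from 45945 in C13 to 81115 in C18. The part of these lists in the rank differences was not tested.

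Single members spanned almost the whole list. Rpl37, a large subunit protein, ranked best, at 287 and 150 in C2, 263 and 168 in C18, 567 and 490 in C13, and 268 and 421 in C10. Rpl15, whose human ortholog is a Diamond-Blackfan anaemia gene, ranked 204 and 327 in C2, 205 and 332 in C18, 585 and 605 in C13, and 290 and 378 in C10. For both, C13 was last and did not overlap the other populations, but neither passed the test of rank in the 3 contrasts of the design described below, and both passed in the added pair of C13 and C18. Rps29 and Rps21 of the small subunit were also among the 5 best. Rps29 ran from 285 in C2 replicate 2 to 1956 in C13 replicate 1, and Rps21 from 263 in C18 replicate 2 to 1115 in C10 replicate 1.

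At the other end, after the 3 copies without a peak, stood Rpl23 and Rps10 by median rank. Rpl23, a large subunit protein known to bind the p53 regulator MDM2, ranked 17953 and 18961 in C2, 8033 and 5453 in C18, 63864 and 60511 in C13, and 69468 and 63790 in C10. Rps10 ranked 19412 and 21828 in C2, 12990 and 14941 in C18, 60568 and 57272 in C13, and 70755 in C10 replicate 2, with no peak in C10 replicate 1. In both genes the C13 and C10 libraries overlapped or adjoined each other far behind the other 4 libraries. The order of the 74 genes was otherwise much alike, with Spearman's rho between population mean ranks from 0.80 (C18 and C10) to 0.93 (C13 and C10), a description over genes that share libraries.

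**Figure D2:**
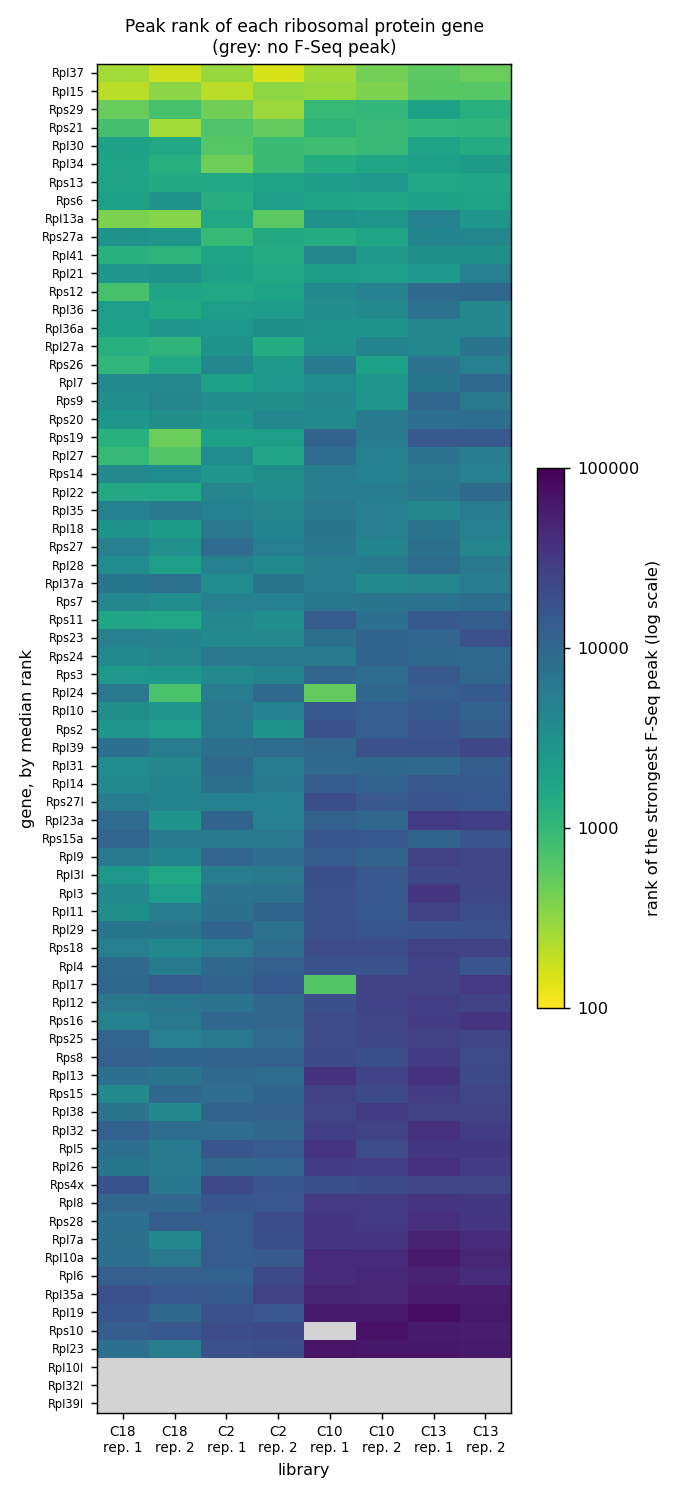
Rank of the strongest F-Seq peak (colour, log scale, yellow strongest) of 74 of the 77 genes (rows, by median rank) in the 8 libraries (columns), with grey for no F-Seq peak. Most rows darken from C18 and C2 on the left to C10 and C13 on the right; the bright cells at Rpl24 and Rpl17 come from peaks outside the gene.

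C10 and C18 differ by label in CD48, bright in C10 and dim in C18. Differences were tested on the -log2 rank, on which a difference of 1 is a factor of 2 in rank and a negative value means a weaker rank, with limma over all 17308 genes that had a peak in at least 2 lists. Of the 74 members tested, 50 ranked lower in C10 at an adjusted p under 0.05 (28.5% of all genes tested) and 1 ranked higher (12.7% of all genes). The median difference was -1.36, against -0.26 over all genes. Rpl23 fell by 3.33 (SE 0.277, adjusted p = 0.000133, limma), and Rps19 fell by 3.37 (SE 0.470, adjusted p = 0.00075, limma). Rpl3l, Rps10 and Rpl10a differed by -3.06, -2.59 and -2.64. The member that ranked higher was Rpl30, a small RNA-binding protein of the large subunit, at 842 and 918 in C10 against 1894 and 1618 in C18, a difference of 0.99 (SE 0.337, adjusted p = 0.0398, limma). It was called in 10 of 17 alternative analyses. By HOMER bases scaled to the length of the lists, as described below, Rpl30 was instead called lower in C10. It had 638 and 600 unscaled bases in C10 and 663 and 578 in C18.

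Because the median of all genes was itself below 0, the comparison was repeated with each library centred on its median gene, an analysis added after the data were seen. Then 35 members were lower and 4 higher in C10. Over all genes this centring turned the split from 2196 higher and 4940 lower to 4642 higher and 2841 lower, so the direction of the calls over all genes depends on the centring, while most calls among the members were lower in both. Ranking among genes alone gave 38 lower and 3 higher members, against 3381 lower and 3221 higher of all 17308 genes. When 1 library was left out at a time, 36 to 49 members were called. Among the 68 members whose strongest peaks shared bases, 48 were lower (28.5% of all genes) and 1 higher (12.7% of all genes), with a median of -1.39.

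**Figure D3:**
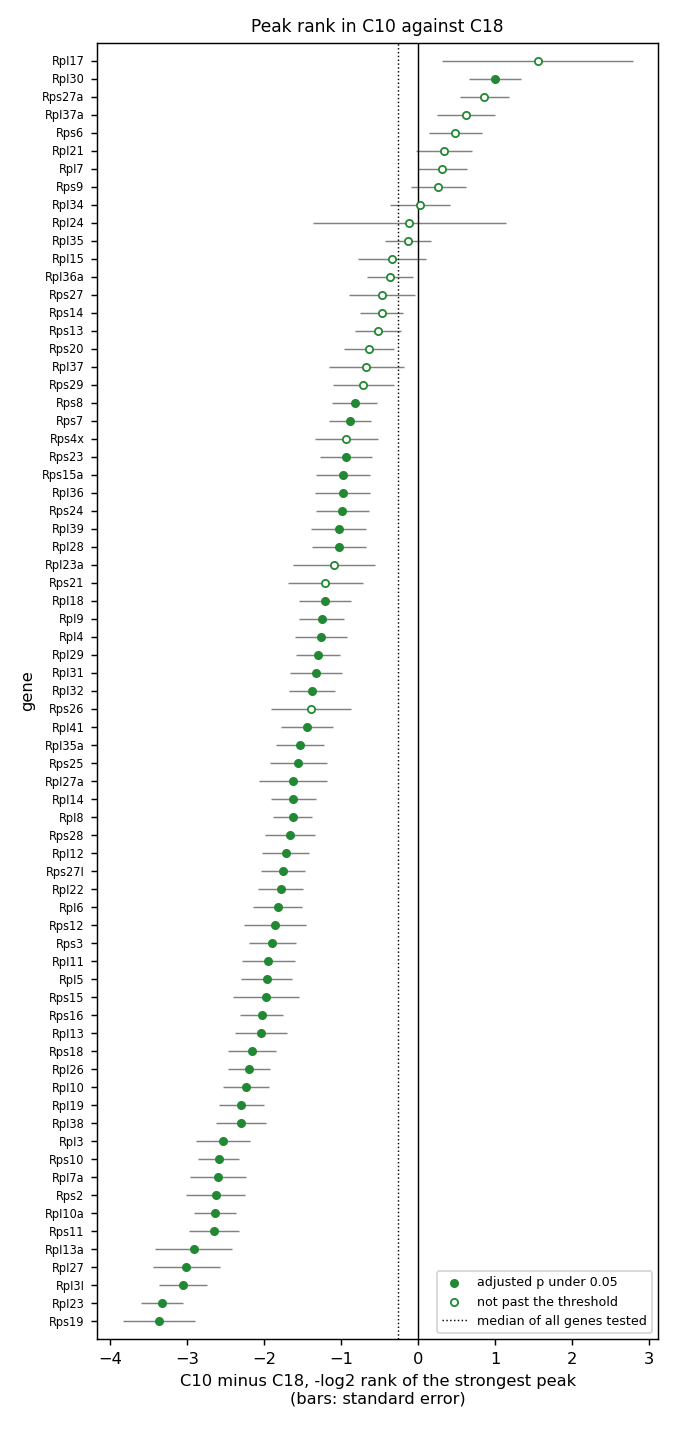
Difference in -log2 rank of the strongest F-Seq peak between C10 and C18 (horizontal axis, points with standard errors) for 71 of the 74 members tested, filled where the adjusted p was under 0.05; the dotted line is the median of all genes. Of these, 62 points lie below 0 and Rpl30 is the 1 filled point above it; the wide bars belong to Rpl17 and Rpl24.

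C13, the population without CD41 and CD9, was set against the mean of C10 and C18. In C13, 49 of 74 members ranked lower (22.9% of all genes) and 0 higher (11.2% of all genes), with a median of -1.07 against -0.30 over all genes. The smallest p-values belonged to Rpl3l (-1.98), Rpl10a (-1.62), Rpl3 (-2.03), Rpl9 (-1.68) and Rpl23 (-1.57). Rpl3, which lies near the peptide-bond centre, ranked 33806 and 22938 in C13, 17942 and 15102 in C10, 3738 and 2150 in C18, and 7237 and 7557 in C2. Its C13 libraries were behind all others, while those of C10 stood between C13 and C2 (adjusted p = 0.00144 for C13, SE 0.301, limma).

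That contrast rested in large part on C18. Against C18 alone, in pair contrasts added after the data were seen, C13 was lower at 60 members (33.6% of all genes) and higher at 0 (14.2% of all genes), with a median of -1.78 against -0.41. Against C10 alone it was lower at 4 (4.86% of all genes), which were Rps27a, Rpl7, Rps9 and Rpl9, and higher at 0 (5.9% of all genes), with a median of -0.30 against -0.08. That share is near the share over all genes. Without the C18 libraries the count was 6, against 1406 of 17025 genes. Rps27a, made as a fusion with ubiquitin, ranked 1393 and 1698 in C10 and fell to 4407 and 4172 in C13, a change of -1.48 (SE 0.323, adjusted p = 0.0183, limma). Of the 49 calls against the mean, 46 were among the 68 members whose strongest peaks shared bases, and the other 3 were Rpl23a, Rps18 and Rps9. With C13 replicate 1 or 2 left out, calls against the mean and against C10 fell, among the members and over all genes. The medians of the members against the mean were then -1.02 and -1.14, against -0.32 and -0.30 over all genes. Against C10 they were -0.23 and -0.38, against -0.06 and -0.10 over all genes. With centring, 26 members were lower against the mean, while the split over all genes turned from 1940 higher and 3969 lower to 2855 and 1937.

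C2, the CD34bright population, against the mean of C10 and C18 gave 0 members higher (0.127% of all genes) and 0 lower (0.173% of all genes) in limma. At an unadjusted p under 0.05, 13 members were higher (10.7% of all genes) and 0 lower (4.86% of all genes). The smallest p-values were those of Rps27l (0.92, SE 0.245, adjusted p = 0.159, limma) and Rpl34 (1.26, SE 0.335, adjusted p = 0.160, limma). The mean of C10 and C18 spans populations on both sides of C2, and the pair contrasts differed from it. Against C10, 26 members ranked higher in C2 (10.8% of all genes) and 0 lower (2.2% of all genes), with a median of 0.91 against 0.22. Rps10, Rpl23, Rpl19 and Rps27l had the smallest p-values, with differences of 2.03, 1.85, 1.90 and 1.80.

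These calls rested on both libraries of C2 and of C10. Leaving out any of them removed nearly all calls, among the members and over all genes alike. The median of the members was then 1.03 and 0.82 without C2 replicate 1 or 2, and 0.95 and 1.02 without C10 replicate 1 or 2. All genes had medians of 0.25, 0.19, 0.23 and 0.24 in these fits. Without the C18 libraries, 36 members were higher in C2, against 3191 of 17025 genes. With centring the count was 13, and the split over all genes turned from 1868 higher and 381 lower to 666 and 1106. Against C18, C2 was higher at 2 members (4.5% of all genes), Rps27a and Rpl30, and lower at 7 (6.25% of all genes), among them Rpl23, Rpl3l, Rpl22, Rpl7a and Rpl3, with a median of -0.50 against -0.07. Rpl30 ranked 624 and 896 in C2. By rank, C2 and C10 thus did not differ beyond their spread in this gene, and both were ahead of C18. Leaving out C2 replicate 1 or 2 removed most calls of C2 against C18, among the members and over all genes. The medians of the members were then -0.45 and -0.51, against -0.05 and -0.11 over all genes. All of these comparisons share libraries and are not independent.

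A group of 5 members had been singled out for their human orthologs in red cell disease. Rps19, the most often mutated gene of Diamond-Blackfan anaemia, ranked 1970 and 2161 in C2, 1256 and 479 in C18, 14466 and 14393 in C13, and 11163 and 5761 in C10. Every C13 and C10 library was behind every C2 and C18 library, and the difference between C13 and the mean of C10 and C18 was -2.53 (SE 0.407, adjusted p = 0.00203, limma). Rpl5 and Rpl11, which together with 5S RNA bind MDM2, showed the same separation at weaker ranks. Rpl5 ranked 15798 and 13274 in C2, 8088 and 5954 in C18, 32222 and 32233 in C13, and 35345 and 20826 in C10. Rpl11 ranked 7905 and 10866 in C2, 3239 and 5330 in C18, 26385 and 19783 in C13, and 17323 and 14789 in C10. Between C10 and C18 they differed by -1.97 (SE 0.332, adjusted p = 0.00182, limma) and -1.95 (SE 0.343, adjusted p = 0.00225, limma).

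The other 2 genes were Rps26 and Rps14. Rps26 ranked 3954 and 2446 in C2, 1050 and 1628 in C18, 7504 and 5043 in C13, and 5923 and 1991 in C10, where the libraries of C10 spread widely and overlapped C2. It passed in C13 against the mean (-1.54, SE 0.447, adjusted p = 0.0265, limma) but not in C10 against C18 (-1.39, SE 0.516, adjusted p = 0.0549, limma). Rps14, lost in the 5q- syndrome, ranked from 2757 in C2 replicate 1 to 6100 in C13 replicate 1 and passed in no contrast of rank. By HOMER bases it was lower in C13 against the mean (-0.90, SE 0.224, adjusted p = 0.0364, limma), and it was also called lower in C10 against C18. Of the 19 Diamond-Blackfan anaemia genes among the members, 14 ranked lower in C10 than in C18 (28.5% of all genes), with a median of -1.39. In C13, 12 of them ranked lower than in the mean (22.9% of all genes), with a median of -1.02. The medians were -1.36 and -1.07 over all 74 members, and -0.26 and -0.30 over all genes.

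Members of the large and the small subunit were also counted apart, with the difference between the subunits not tested. In C10 against C18, 31 of 44 large subunit genes and 19 of 30 small subunit genes ranked lower (28.5% of all genes). Their medians were -1.41 and -1.27. In C13 against the mean the counts were 29 of 44 and 20 of 30 (22.9% of all genes), with medians of -1.08 and -1.05. In C2 against C10, 13 of 44 and 13 of 30 ranked higher (10.8% of all genes), with medians of 0.88 and 1.13. In C2 against C18, 7 of 44 and 0 of 30 ranked lower (6.25% of all genes), with medians of -0.56 and -0.44. There, 1 of each subunit ranked higher (4.5% of all genes). Rps13, a small subunit protein, stayed within 1460 to 2417 in all 8 libraries.

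Related gene lists of translation were counted in the same way, beside the 28.5% of all genes that ranked lower and the 12.7% that ranked higher in C10 than in C18 (median -0.26). Of 10 ribosomal protein genes whose symbols fall outside the rule, 7 ranked lower (median -1.83) and 1 higher. Fau, the fusion gene of Rps30, ranked 59252 and 53861 in C10 against 6199 and 6519 in C18, a difference of -3.15 (SE 0.254, adjusted p = 0.000119, limma), a value shared with Mrpl49, whose stretch holds the same peak. The higher one was Rpl22l1, the copy of Rpl22, at 356 and 431 in C10, 175 and 296 in C13, 463 and 566 in C2, and 1420 and 1776 in C18. It rose by 2.02 in C10 against C18 (adjusted p = 0.00379, limma), whereas Rpl22 fell by 1.79 (adjusted p = 0.00165, limma), from 1533 and 1620 in C18 to 5333 and 5548 in C10. The Rpl22 protein is known to repress Rpl22l1 expression.

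Among 15 translation factors and other genes of 5' TOP mRNAs, 10 ranked lower in C10 than in C18 (median -1.58) and 1 higher, led by the initiation factor Eif4b (-3.47) and the elongation factor Eef1g (-3.42), with Eef1b2 the higher one (1.17). Ribosome assembly factors had 11 of 20 lower (median -1.08), RNA polymerase I genes 5 of 10 (median -0.93) and mitochondrial ribosomal proteins 39 of 78 lower and 2 higher (median -0.95). In C13 against the mean, where 22.9% of all genes ranked lower (median -0.30), 10 of 15, 10 of 20, 2 of 10 and 28 of 78 ranked lower in these 4 lists, with medians of -1.21, -0.83, -0.30 and -0.67. The RNA polymerase I genes were thus near all genes. Fbl, the methyltransferase of ribosomal RNA, was an exception: it ranked 3483 and 2105 in C13, ahead of 5609 and 5186 in C18 and of 11432 and 14586 in C10, a difference of 1.62 (SE 0.282, adjusted p = 0.00286, limma). In C2 against C10, where 10.8% of all genes ranked higher (median 0.22), 8 of 15, 4 of 20, 2 of 10 and 19 of 78 ranked higher, with medians of 1.15, 0.76, 0.45 and 0.71.

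**Figure D4:**
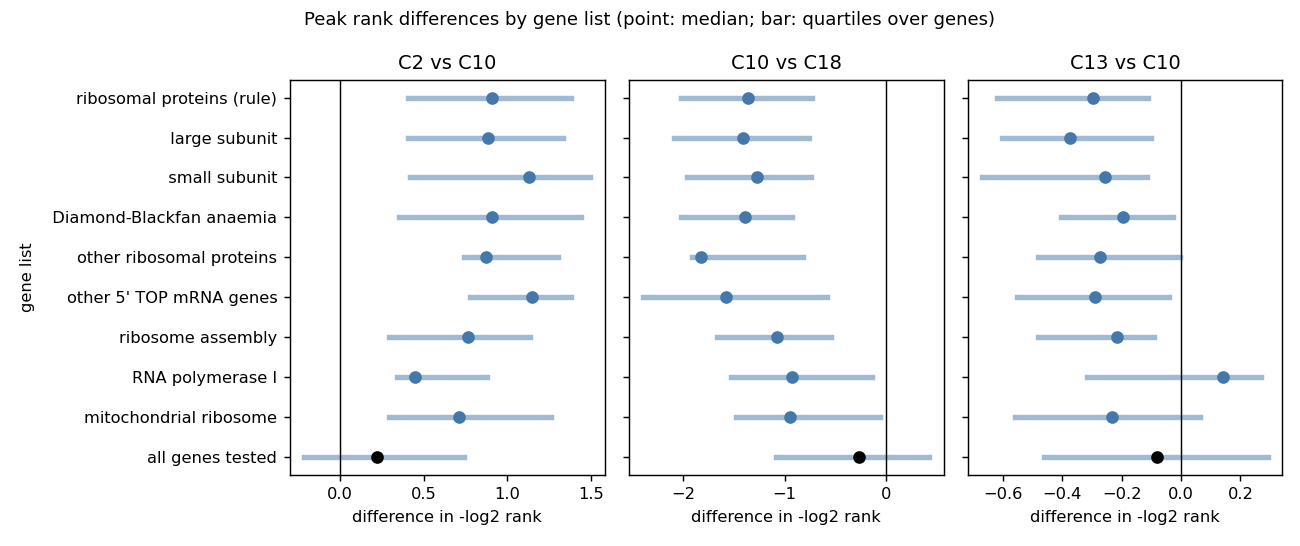
Difference in -log2 rank of the strongest F-Seq peak (horizontal axis, a panel per pair of populations, scales differ) for gene lists of the ribosome and translation; points are medians and bars quartiles over genes. In C10 against C18 all lists lie below the median of all genes (-0.26), from -0.93 in RNA polymerase I genes to -1.83 in the ribosomal protein genes outside the rule.

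Peak width separated the populations far less than rank. The median width of the strongest peak was 1757.5 and 1562.5 bases in C2, 1199.5 and 1608 in C18, 1476.5 and 1529 in C13, and 1429 and 1449 in C10, against 994 to 1513 bases for all genes. Width was tested relative to the median width of each list in the 73 members with a peak everywhere. C10 against C18 gave 1 lower member (2.36% of all genes), Rpl14, and 0 higher (1.76% of all genes), with a median of -0.41 against -0.20. At an unadjusted p under 0.05, 29 members were lower (20.1% of all genes) and 0 higher (7.21% of all genes). Rpl14 was 975 and 1020 bases wide in C10 and 1397 and 1917 in C18 (-1.21, SE 0.179, adjusted p = 0.0233, limma). Without scaling to the list median 0 members were called and the median was 0.09, against 0.30 over all genes, so the sign of the width difference depends on the scaling. Leaving out C18 replicate 1 gave 7 calls, and leaving out any 1 library of C13 or C10 gave 0.

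C13 against the mean gave 0 higher (1.09% of all genes) and 0 lower (1.13% of all genes) in limma. At an unadjusted p under 0.05, 0 were higher (7.73% of all genes) and 7 lower (8.19% of all genes). C2 against the mean also gave 0 higher (0.228% of all genes) and 0 lower (0.0134% of all genes), with 6 higher (9.63% of all genes) and 0 lower (2.54% of all genes) at an unadjusted p under 0.05. The smallest p-values in C2 were those of Rpl22 (0.81, adjusted p = 0.115, limma) and Rps20 (0.71, adjusted p = 0.147, limma), and in C13 those of Rpl41 (-0.87, adjusted p = 0.137, limma) and Rpl3 (-0.50, adjusted p = 0.190, limma). The widest peaks by median were at Rpl7 (3253 bases), Rps27a (2951) and Rps12 (2708), and the narrowest at Rps28 (769.5), Rpl13 (927) and Rps10 (970). Rpl7 stayed between 3042 and 3819 bases in all libraries, while Rps27a ran from 1318 in C18 replicate 1 to 4427 in C2 replicate 1.

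**Figure D5:**
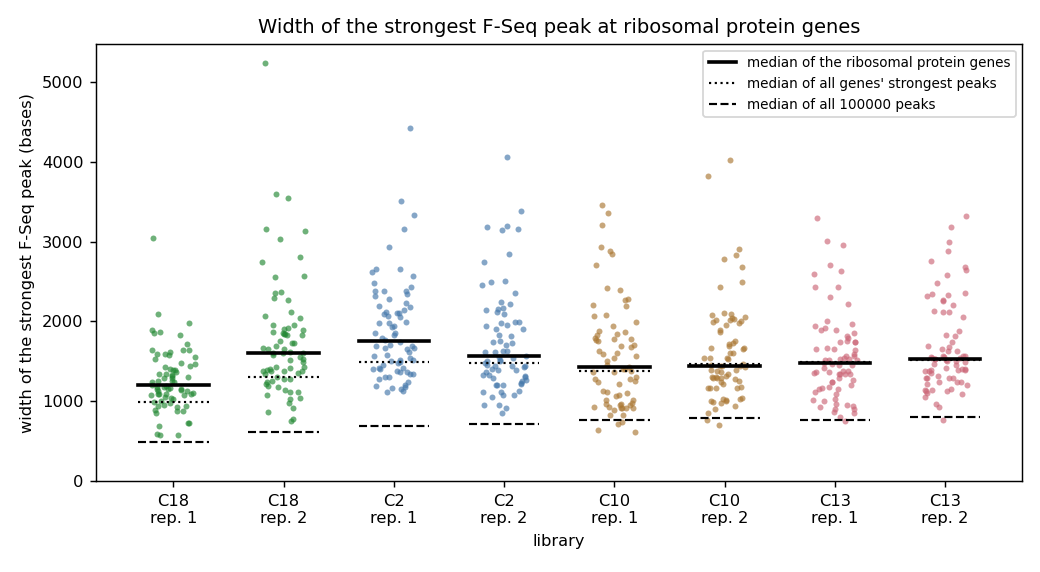
Width in bases of the strongest F-Seq peak of each ribosomal protein gene (points) in the 8 libraries; bars are the medians of these genes (solid), of all genes' strongest peaks (dotted) and of all 100000 peaks of a list (dashed). The populations overlap, and C18 replicate 1 has the narrowest peaks at each of the 3 levels.

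HOMER peaks gave a second view of the same genes. Each member had on average 4.57 and 4.26 HOMER peaks in C2, 2.87 and 3.32 in C18, 4.22 and 4.19 in C13, and 4.27 and 4.18 in C10, so that the short C18 lists had the fewest. The bases under HOMER peaks, scaled to the mean covered length of the lists and compared as log2(bases + 150), were tested in 75 members. In C10 against C18, 41 were lower (28.2% of all genes) and 0 higher (16.8% of all genes), with a median of -1.001 against -0.25. In C13 against the mean, 12 were lower (10.7% of all genes) and 0 higher (8.9% of all genes), with a median of -0.54 against -0.14. In C2 against the mean 0 were higher (0.184% of all genes) and 0 lower (0.0575% of all genes) in limma. At an unadjusted p under 0.05, 2 were higher (8.14% of all genes) and 6 lower (7.47% of all genes). In a window of 1 kb around the gene start, members were closer to all genes. There, 9 of 55 members were lower in C13 against the mean, near the share over all genes (1863 of 12017), with medians of -0.45 and -0.35. In C10 against C18, 30 of 55 were lower there, against 4727 of 12017 genes, with medians of -0.94 and -0.64. In both, 0 members were higher.

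These HOMER directions came with the scaling. Without it, 17 of 75 members were higher and 1 lower in C10 against C18, while 9611 of 17401 genes were higher and 28 lower. The median was 0.29 against 0.95 over all genes. In C13 against the mean, 6 members were higher and 1 lower, while 5651 of all genes were higher and 134 lower. The median there was 0.15 against 0.52. In all of these settings the median of the members lay below that of all genes. Rpl29, a large subunit protein, had the smallest p-values in both. It had 437 and 611 unscaled bases in C2, 523 and 621 in C18, 150 and 150 in C13, and 330 and 390 in C10. C13, with a single HOMER peak per library, was below all others, and the scaled differences were -1.64 in C13 (SE 0.196, adjusted p = 0.00793, limma) and -1.86 in C10 against C18 (SE 0.226, adjusted p = 0.00256, limma). The scaled calls in C10 against C18 fell without C10 replicate 1 or 2, among the members and over all genes. The member medians were then -1.04 and -0.83, against -0.26 and -0.22 over all genes. Calls in C13 against the mean fell in the same way without a C13 or C10 replicate. Without C13 replicate 1 or 2 the medians were -0.54 and -0.50, against -0.12 and -0.17 over all genes. Without the C18 libraries 0 members were called in C13, against 31 higher and 13 lower of 17386 genes. The median was then -0.02 in both.

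Promoter motifs were searched in the window from 250 bases before to 50 after the start, on both strands, in 58 members and 17492 genes. The ETS core CCGGAAG was present in 23 members (39.7%, against 12.9% of all genes), and a pyrimidine run within 10 bases of the start, on the gene's strand, in 14 (24.1%, against 5.60%). The runs searched were CTTTC, also CTTTT, also CCTTT, and they can overlap. SP motifs CCGCCC were found in 33 (56.9%, against 49.2%), CCAAT boxes in 17 (29.3%, against 42.3%), the core promoter box TATAAA in 6 (10.3%, against 14.8%) and the site of GATA factors, AGATAA, in 5 (8.62%, against 11.2%). In C10 against C18 the median difference was -1.50 in members with an ETS core and -1.67 in those without. Over all genes it was -0.65 with an ETS core and -0.23 without. The E-box CACGTG was found in 6 members, Rps19, Rpl23, Rpl13a, Rpl19, Rpl14 and Rpl34 (10.3%, against 8.91%). Their median difference was -2.61, with Rpl34 at 0.02, against -1.54 in the 49 members without it, and over all genes it was -0.45 with and -0.28 without. This last comparison was picked after its values were seen, covers 6 genes and was not tested.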

How the data were processed

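The authors' processed data were peak lists called in each library, on mm10, with Bowtie 1.0.0 and HOMER named per the submitters' processing notes and no version stated for F-Seq. In the deposited F-Seq lists, column 7 is a peak signal, which served solely for ranks inside each list, and the deposited HOMER lists carry an unlabelled score column that was not used. Gene bodies came from RefSeq (GRCm38.p6). The rank measure was -log2 of the rank of the strongest peak within 1 kb of the gene body (100001 where absent, for genes with a peak in at least 2 of 8 lists). Width was log2 of its width over the list median. HOMER bases were scaled to the mean total, with 150 bases added before log2. All genes were fitted with limma 3.58.1 (R 4.3.3) on 4 group means, eBayes with trend, and Benjamini-Hochberg adjustment over all genes at 0.05, and the code was tested on simulated data. The members, gene lists, contrasts and the rule for named genes were chosen with earlier results of these data known. Named were 5 disease genes, the 5 best and 5 lowest by median rank, members lacking peaks, up to 5 called members by p per direction and contrast (or the 2 smallest p), the 3 widest and 3 narrowest, and up to 3 called genes per related list; some of these are not reported here by name, though they count in all totals. Other genes named, such as Rps13, Rps12 and Rpl22, were chosen after their values were seen. Alternatives covered the window, filter, scaling, pseudocount, block and each library left out.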

Additional observations from a re-analysis of the deposited data

How the results depend on the processing

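With 2 libraries a group and unknown depth, the lists show order, not amount. A lone library left in a group was assumed to vary like the other groups. Where a library of C2, C13 or C10 was left out of a contrast with its group, the calls over all genes also fell. Same-numbered libraries were not treated as pairs, since the correlation of their rank deviations was over 0.1 in 4 of 6 pairs and not in all (range -0.0024 to 0.36). With the replicate number as a block, the members called by rank were 14 in C2 against C18 and, by HOMER bases, 7 in C13, and no other count of members moved by over 1.5 times. Counts of members called, with 1 library left out at a time, were 0 to 0 (C2), 15 to 52 (C13), 36 to 49 (C10 against C18), 0 to 34 (C2 against C10, where 1 without C10 replicate 2 had a turned direction), 0 to 10 (C2 against C18), 0 to 6 (C13 against C10) and 48 to 58 (C13 against C18) by rank, 0 to 0, 0 to 1 and 0 to 7 by width, and 0 to 0, 0 to 21 and 16 to 42 by HOMER bases, the last 3-contrast sets in the order C2, C13, C10 against C18. Without the C18 libraries the rank counts were 36 (C2) and 6 (C13), the width count 1 (C2) and the HOMER count 0 (C13). Centring gave 26 (C13) and 13 (C2 against C10) by rank, and 2 (C13) and 18 (C10 against C18) by HOMER bases; ranking among genes gave 28 and 10; centring and ranking among genes were added after the data were seen. Without a filter on genes the rank counts were 10 (C2 against C10), 0 (C2 against C18) and 1 (C13 against C10). A window of 1 kb around the start gave 3 (C2 against C18) and 0 (C13 against C10) by rank and 3 (C10 against C18) by width. C2 against C18 gave 14 with genes in all 8 lists and 0 on a linear rank. Width in C10 against C18 gave 2 without trend, 1 in the opposite direction at 10 kb, 0 unscaled and 8 when summed. HOMER bases without scaling gave 1 (C2), 7 (C13, direction turned) and 18 (C10 against C18, direction turned), and 4 (C13) for peaks shared with F-Seq. Both turns without scaling also held over all genes. Differences of named genes changed sign for Rpl23 in C13 without C18 (0.10), Rps14 in C13 ranked among genes (0.0059) and in C10 against C18 centred (0.042), and, without HOMER scaling, Rpl36 (0.028) and Rps18 (0.24), both in C10 against C18. Of 995 recomputed values of 56 named results, 829 kept direction and call, 154 lost and 7 gained it, and 5 changed sign. The cause was not tested except where fewer samples or genes entered.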

Other observations

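At 6 members the strongest peaks of the lists did not all share bases, and in some lists the summit lay outside the gene. Rpl24 ranked 718 in C18 replicate 2 and 523 in C10 replicate 1, from a peak whose summit lay 2.27 and 2.28 kb outside the gene. The other 6 libraries had a peak with its summit within the gene, at ranks 5358 to 14127. Rpl17 ranked 637 in C10 replicate 1, from a peak with its summit 2.44 kb outside the gene, against 24022 in C10 replicate 2. Rpl23a ranked 4903 in C2 replicate 2, 2874 in C18 replicate 2, and 11704 and 10159 in C10. These ranks came from a peak with its summit 2.92 to 2.94 kb outside the gene. The other 4 libraries had a peak near the other end of the gene, at ranks 9022 to 31121. Rps18 ranked 27161 in C13 replicate 1, from a peak with its summit 589 bases outside the gene. In C13 replicate 2 it ranked 26198, from the peak that all other libraries used. Rps9 took its rank from a peak with its summit 262 to 288 bases outside the gene in all lists but those of C18. The Rpl41 rank in C10 came from a peak with its summit 236 and 278 bases outside the gene. Among the mitochondrial ribosomal proteins, Mrpl50 ran against its list, at ranks 24 and 20 in C10, 46 and 42 in C13, 84 and 80 in C2, and 447 and 418 in C18, and it rose by 4.30 in C10 against C18 (adjusted p = 0.000432, limma).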
